A study of Mus musculus with 16 samples.

Results

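Wnt feedback and target genes were examined in mouse liver and liver tumours in which Axin1 had been deleted. The 9 genes, named in advance by symbol, were Axin2, Nkd1, Rnf43, Znrf3, Notum, Lgr5, Tbx3, Sp5 and Lef1. Each had 1 probe set among the 23279 genes tested, so all 9 were measured. Their Entrez Gene numbers are 12006 for Axin2, 93960 for Nkd1, 207742 for Rnf43, 407821 for Znrf3, 77583 for Notum, 14160 for Lgr5, 21386 for Tbx3, 64406 for Sp5 and 16842 for Lef1. Members were found by their annotated gene symbol, and no measured value entered that choice here, although the list was proposed with earlier results of these data known.

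All animals were male and 16 months old. The deleted mice came from crosses of Axin1 fl/fl animals, whose Axin1 alleles can be removed, with Alfp-Cre animals, in which Cre recombinase is active in embryonic hepatocytes. Only cells of that lineage lose Axin1, and other liver cells keep it. The 3 groups were whole liver of 3 non-deleted control mice (10, 11 and 12), non-tumoral liver next to tumours in 5 deleted mice (121, 123, 124, 1931 and 81), and 8 tumours of 6 deleted mice (121, 123, 124, 81, 90 and 93). The alleles and Cre status of the controls are not given in the labels beyond the absence of deletion. Mouse 121 gave 3 tumours, an unnumbered one and tumours 2 and 3, which were averaged for group tests. Mice 121, 123, 124 and 81 gave both a tumour and adjacent liver. Whether adjacent liver 1931 and tumour 93 come from 1 mouse is not known.

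In canonical Wnt signalling, secreted Wnt ligands bind Frizzled and LRP receptors at the cell surface. This stops a cytoplasmic complex built on Axin proteins from marking beta-catenin for destruction, and beta-catenin then enters the nucleus and switches on genes with TCF and LEF factors. Several of the genes switched on encode brakes on the same pathway, so their RNA is widely used as a reading of its activity. In liver the pathway is most active in hepatocytes around the central vein, where Glul, Axin2, Lgr5 and Tbx3 are expressed. Axin1 is itself one of the brakes, since it is part of the destruction complex.

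Hepatocyte markers were high on every array, with a mean log2 value over 6 measured markers between 11.44 and 11.86 in the mice of all groups. Alb, the albumin gene, lay between 11.89 and 12.58. Median log2 values per array were 4.37 to 4.50. Precision is limited by how few arrays each group has. Axin1 itself was below every control value in each deleted mouse. It averaged 5.26 in controls, 4.21 in the livers beside tumours and 4.44 in tumours. Which of its exons the probe set reads is not stated in the labels. Control 10 stood apart from the other controls in its macrophage markers, with a mean log2 value of 8.90 against 6.50 and 5.73 in controls 11 and 12, and had their highest mean of cycling markers, 5.39 against 4.64 and 4.08. The tumour of mouse 93 moves the number of genes that pass between tumour and adjacent liver from 36 to 743 when it is left out, and the members' counts without it are given below.

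Promoter sequences of 5 of the 9 genes, Axin2, Nkd1, Rnf43, Sp5 and Lef1, were held by the RefSeq table for mouse build GRCm38.p6, as windows of 250 bases before to 50 bases after an annotated start. They were searched for the 6-base core of the TCF/LEF element, CTTTGA, and its reverse complement TCAAAG, on both strands. The core occurred in 16.0% of all 32851 windows of that table, and at least 2 copies occurred in 1.73%. Among the 9 windows of the 5 genes, 2 held it, 1 of Sp5 and 1 of the 4 starts of Lef1, each with 2 copies. The sequences below are shown because the data set these genes apart: Axin2 and Nkd1 were the members lower in every tumour mouse than in every adjacent liver, while Sp5 and Lef1 were the members that differed least. They run 5′ to 3′ on the gene's strand, which is the plus strand for all 4, and capitals mark the searched core.
Axin2, chr11:108920099-108920398: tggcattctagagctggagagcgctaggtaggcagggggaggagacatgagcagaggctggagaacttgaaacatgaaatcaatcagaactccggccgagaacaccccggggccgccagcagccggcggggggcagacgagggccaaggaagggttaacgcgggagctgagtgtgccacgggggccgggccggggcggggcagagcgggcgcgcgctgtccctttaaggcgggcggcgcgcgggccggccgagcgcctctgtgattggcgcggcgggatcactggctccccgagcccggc
Nkd1, chr8:88527383-88527682: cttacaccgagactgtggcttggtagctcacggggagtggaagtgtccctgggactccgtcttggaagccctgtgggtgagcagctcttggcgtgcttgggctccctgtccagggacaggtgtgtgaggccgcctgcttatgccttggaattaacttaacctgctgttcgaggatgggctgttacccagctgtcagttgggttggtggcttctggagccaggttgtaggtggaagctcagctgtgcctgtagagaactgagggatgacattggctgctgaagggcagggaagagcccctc
Sp5, chr2:70474673-70474972: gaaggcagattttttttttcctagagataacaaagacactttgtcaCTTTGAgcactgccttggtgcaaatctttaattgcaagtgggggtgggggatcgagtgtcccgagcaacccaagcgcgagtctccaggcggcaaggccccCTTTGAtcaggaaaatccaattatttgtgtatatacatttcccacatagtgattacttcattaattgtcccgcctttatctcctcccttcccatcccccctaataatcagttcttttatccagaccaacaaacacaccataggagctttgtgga
Lef1, start 4, chr3:131156044-131156343: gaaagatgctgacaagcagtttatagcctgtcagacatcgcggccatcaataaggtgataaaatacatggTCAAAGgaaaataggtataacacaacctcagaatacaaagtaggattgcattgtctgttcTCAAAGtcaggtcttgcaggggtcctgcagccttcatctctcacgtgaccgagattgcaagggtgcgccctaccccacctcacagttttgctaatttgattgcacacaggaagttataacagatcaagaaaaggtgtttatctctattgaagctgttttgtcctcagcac
In the Sp5 window the copies begin at positions -204 and -104 relative to the annotated start, both as CTTTGA. In the window of the fourth Lef1 start they begin at -180 and -120, both as TCAAAG. The Axin2 and Nkd1 windows hold no copy, which says only that these letters are not in these 300 bases. Of the Lef1 windows only that of start 4 is printed, chosen for the core and not for any expression value. Starts 1 to 3 hold no copy. The printed windows of Axin2, Nkd1 and Lef1 begin inside the annotated genes, whose first bases are at 108917828, 88521342 and 131110297. That of Sp5 spans the first base of its gene, 70474923. The windows thus differ in where they lie in the genes.

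The first comparison set tumours against the liver around them. All 9 genes had lower means in tumours, with log2 differences from -0.74 for Lgr5 to -0.07 for Lef1 and a median of -0.40, where the median over all genes tested was -0.03. Axin2 and Nkd1, which restrain the pathway inside the cell, were lower in all 6 tumour mice than in any of the 5 adjacent livers. Lgr5, Notum and Tbx3 had the largest mean differences, between 0.62 and 0.74 log2 units, but overlapped between the groups. The mean differences of Sp5 and Lef1 were the smallest of the 9, at -0.09 and -0.07.

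None of the 9 passed an adjusted p under 0.05 over all genes (limma, Benjamini-Hochberg), the call rule under which 0.155% of all genes passed. At an unadjusted p under 0.05, 6 of the 9 were lower (Axin2, Nkd1, Notum, Lgr5, Znrf3 and Tbx3), where 8.32% of all genes were lower at that level. Axin2 and Nkd1, 2 of the 9, were lower without overlap between the groups, as were 1.11% of all genes. A lower mean of any size was found in 56.0% of all genes. Genes are not independent of each other, and the members tend to move together, so these counts describe the 9 and are no test of the list. Leaving out 1 value of 1 mouse and tissue at a time kept the count of passing members at 0 in all 14 omissions. Mice that gave both tissues kept their other value, so they were never left out whole. The count at the unadjusted level lay between 4 and 7. It was 4 without adjacent 124, adjacent 81 or tumour 123, and 6 without tumour 93. The share of all genes at that level was not counted for these omissions. Treating mouse as a random block in a fit of all 16 arrays let 1 member pass, Axin2, at an adjusted p of 0.0472 in limma, where 206 of all genes passed, or 0.885%. In whole tissue, a smaller share of cells that express a gene and less RNA per cell cannot be told apart, and this applies to every value here.

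**Figure D1:**
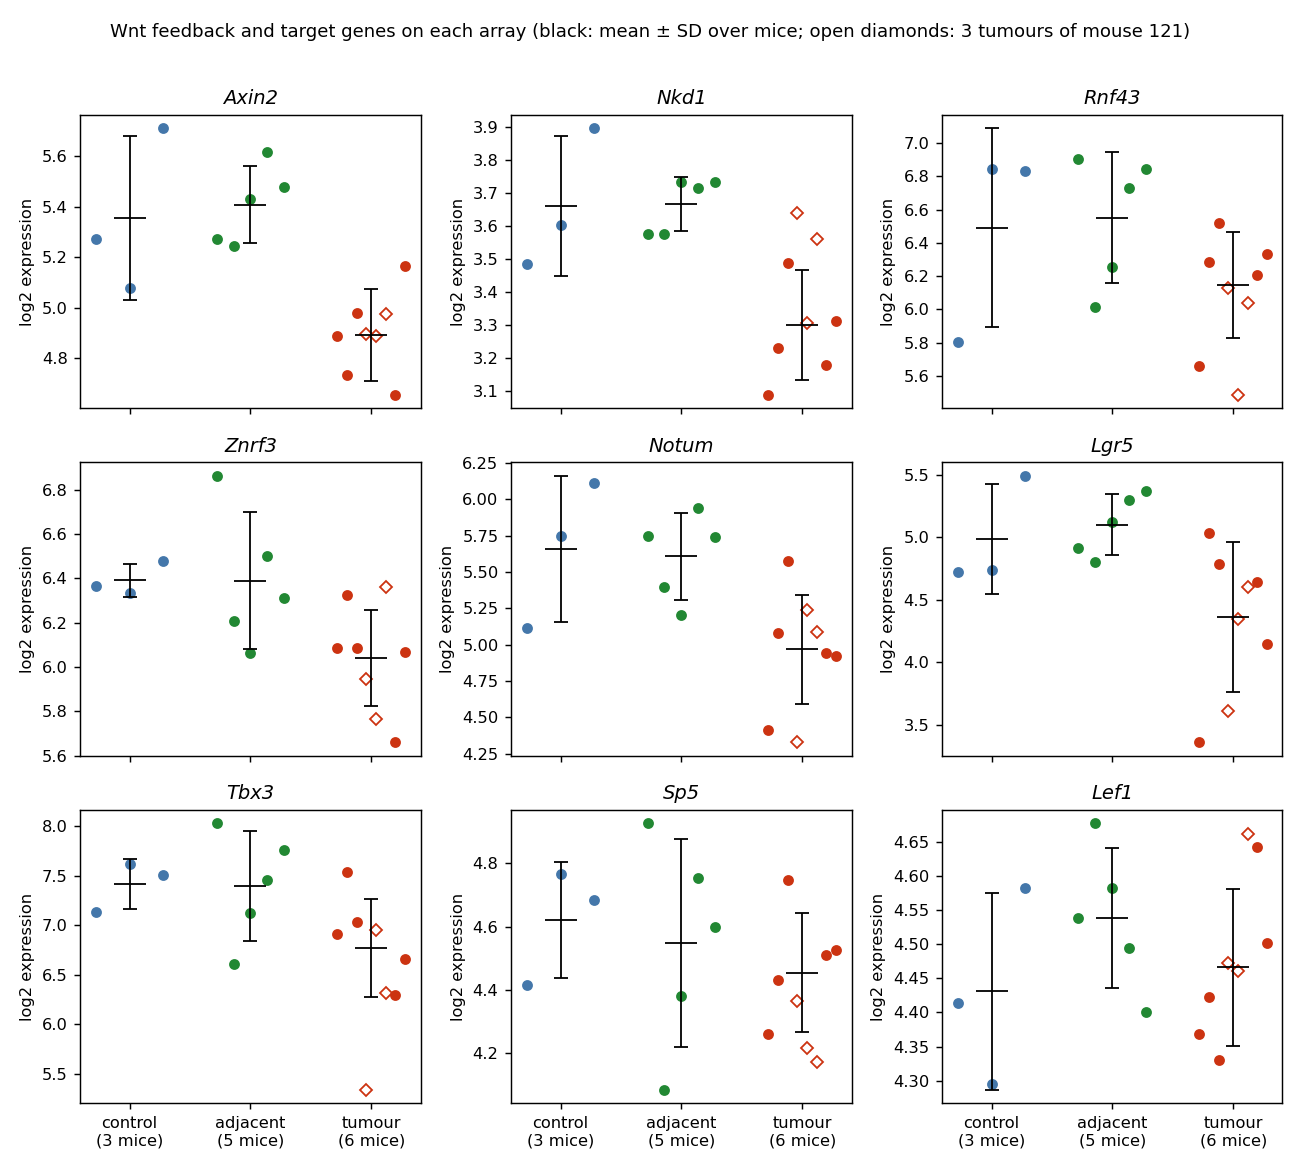
Log2 expression (y axis, own scale in each panel) of the 9 genes on every array, by group on the x axis. Points are arrays, open diamonds the 3 tumours of mouse 121, and black bars the mean and SD over mice; Axin2 in tumours lies between 4.65 and 5.17 and in adjacent liver between 5.25 and 5.62.

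Among the brakes that act inside the cell, Axin2 encodes a scaffold of the beta-catenin destruction complex and is a paralogue of Axin1. Its log2 value was 5.25, 5.43, 5.62, 5.48 and 5.27 in the adjacent livers of mice 121, 123, 124, 1931 and 81. In the 6 tumour mice it ran from 4.65 in mouse 123 through a median of 4.90 to 5.17 in mouse 124. All 8 tumour arrays lay below the lowest adjacent liver, and 7 of the 8 also lay below the lowest control. The difference was -0.52 (SE 0.13), 1.43-fold lower in tumours, with an adjusted p of 0.0896 in limma and a two-sided exact permutation p of 0.00433. Exact permutation p-values here come from 27 tests of single values, are not adjusted, and exchange tumour and adjacent values freely although 4 mice gave both.

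Nkd1 encodes an inhibitor that binds Dishevelled, the relay between receptor and destruction complex. It lay under the median of all values, 4.43, on all 16 arrays, and so drops out under a filter on dim probe sets. Its value was 3.58, 3.73, 3.71, 3.73 and 3.58 in the adjacent livers of mice 121, 123, 124, 1931 and 81. In tumours it ran from 3.09 in mouse 81 through a median of 3.27 to 3.50 in mouse 121. The groups did not overlap by mouse, but the unnumbered tumour of mouse 121, at 3.64, lay within the adjacent range. The difference was -0.37 (SE 0.10, adjusted p = 0.111 in limma, exact permutation p = 0.00649).

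Rnf43 and Znrf3 are related membrane ubiquitin ligases that remove Frizzled receptors from the cell surface. Rnf43 had a mean of 6.55 ± 0.39 (SD, n = 5) beside tumours and of 6.15 ± 0.32 (SD, n = 6) within them. Its adjacent livers ran from 6.02 in mouse 121 to 6.91 in mouse 81, and its tumours from 5.66 in mouse 81 to 6.52 in mouse 93, so the groups overlapped widely. The difference was -0.40 (SE 0.23, adjusted p = 0.432 in limma, exact permutation p = 0.0931). Znrf3 was at 6.39 ± 0.31 (SD, n = 5) and 6.04 ± 0.21 (SD, n = 6), a difference of -0.35 (SE 0.15, adjusted p = 0.269 in limma, exact permutation p = 0.0519). For Znrf3, 6 of 6 tumour mice lay below the adjacent mean, and 2 of them lay below every adjacent liver.

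Notum encodes a secreted enzyme that strips the lipid from Wnt ligands and so inactivates them. Its value was 5.40, 5.21, 5.94, 5.74 and 5.75 in the adjacent livers of mice 121, 123, 124, 1931 and 81. The tumours ran from 4.41 in mouse 81 through a median of 4.93 to 5.57 in mouse 93. Tumour 93 was the one tumour mouse inside the adjacent range. The difference was -0.64 (SE 0.21), 1.56-fold lower in tumours, with an adjusted p of 0.162 in limma and an exact permutation p of 0.0173. Without tumour 93 the groups did not overlap and the difference was -0.76, with an adjusted p of 0.0538. Over the 14 omissions the adjusted p of Notum in limma reached 0.3055.

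Lgr5, a receptor for R-spondins that protects Frizzled from Rnf43 and Znrf3, had the largest mean difference of the 9. It stood at 4.80, 5.13, 5.30, 5.37 and 4.91 in the adjacent livers of mice 121, 123, 124, 1931 and 81. The tumours ran from 3.36 in mouse 81 through a median of 4.42 to 5.03 in mouse 90. Tumours thus spread over 1.68 log2 units and adjacent livers over 0.57, and tumour 90 was the one tumour mouse inside the adjacent range. The difference was -0.74 (SE 0.26), 1.67-fold lower in tumours, with an adjusted p of 0.177 in limma and an exact permutation p of 0.026.

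Tbx3, a T-box transcription factor of pericentral hepatocytes, had the largest spread of the 9 among adjacent livers, with an SD of 0.55 (n = 5). Its value was 6.61, 7.13, 7.46, 7.76 and 8.03 in the adjacent livers of mice 121, 123, 124, 1931 and 81. The tumours ran from 6.20 in mouse 121 through a median of 6.79 to 7.54 in mouse 90, and 5 of 6 lay below the adjacent mean. The difference was -0.62 (SE 0.27, adjusted p = 0.278 in limma, exact permutation p = 0.0823).

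Sp5 encodes a zinc finger factor that damps Wnt target genes, and Lef1 a DNA-binding partner of beta-catenin. Sp5 had a mean of 4.55 ± 0.33 (SD, n = 5) beside tumours and of 4.45 ± 0.19 (SD, n = 6) within them, a difference of -0.09 with a 95% interval from -0.41 to 0.22. No tumour lay below the lowest adjacent liver for Sp5, and without adjacent 81 the difference was 0.00049. Lef1 was at 4.54 ± 0.10 (SD, n = 5) and 4.47 ± 0.11 (SD, n = 6), a difference of -0.07 with a 95% interval from -0.27 to 0.13. The adjusted p was 0.818 for Sp5 and 0.766 for Lef1 in limma, which does not show that the groups are equal. Both genes were dim: Sp5 was above the median of all values, 4.43, on 8 of 16 arrays and Lef1 on 10. Lef1 is also a gene of T cells. The mean log2 value of 7 T cell markers ran from 3.83 to 5.05 in adjacent liver and from 3.86 to 4.58 in tumours, and 0 of 7 differed at an unadjusted p under 0.05. The mouse with the highest T cell value had the highest Lef1 value in adjacent liver (mouse 121) but not in tumours, where mouse 81 had the highest T cell value and Lef1 at 4.37, or in controls, where mouse 10 had it and Lef1 was highest in mouse 12. The part of these cells in Lef1 was not tested.

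**Figure D2:**
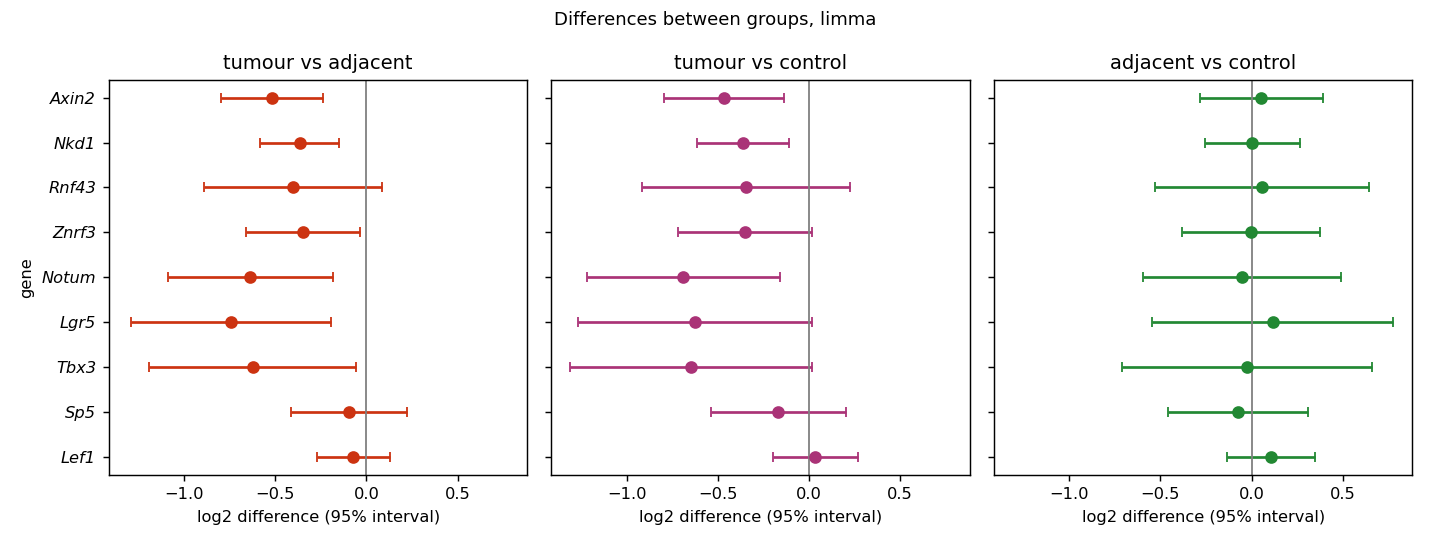
Log2 differences (x axis) of the 9 genes (y axis) in the 3 comparisons, from limma, with 95% intervals as bars. Between tumour and adjacent liver the intervals of Axin2, Nkd1, Znrf3, Notum, Lgr5 and Tbx3 lie below 0, before adjustment over all genes; between adjacent and control liver all 9 span 0.

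Tumour by tumour, the genes did not differ evenly. In the tumour of mouse 81 all 9 members lay below the adjacent mean, 6 of them below every adjacent liver and 5 below every non-tumour liver. The tumour of mouse 123 had 6 below every adjacent liver and all 6 of these below every non-tumour liver. In the tumour of mouse 93 the median member was 0.21 below the adjacent mean (-0.21), and 1 of the 9 lay below every non-tumour liver, Axin2. The share of all genes below these livers was not counted for single tumours. These counts therefore do not set the members apart from other genes. In the tumour of mouse 90, Axin2 stood at -0.68 against the adjacent mean, while Lgr5 was at -0.07 and Tbx3 at 0.14. The order of tumours thus differed from gene to gene: mouse 90 was the second lowest of 6 in Axin2 and the highest in Lgr5, Tbx3 and Znrf3. Glul, the glutamine synthetase gene used as a reference target, was at 8.29 in tumour 90 and 10.76 in tumour 93, against 11.09 to 11.55 in adjacent liver.

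**Figure D3:**
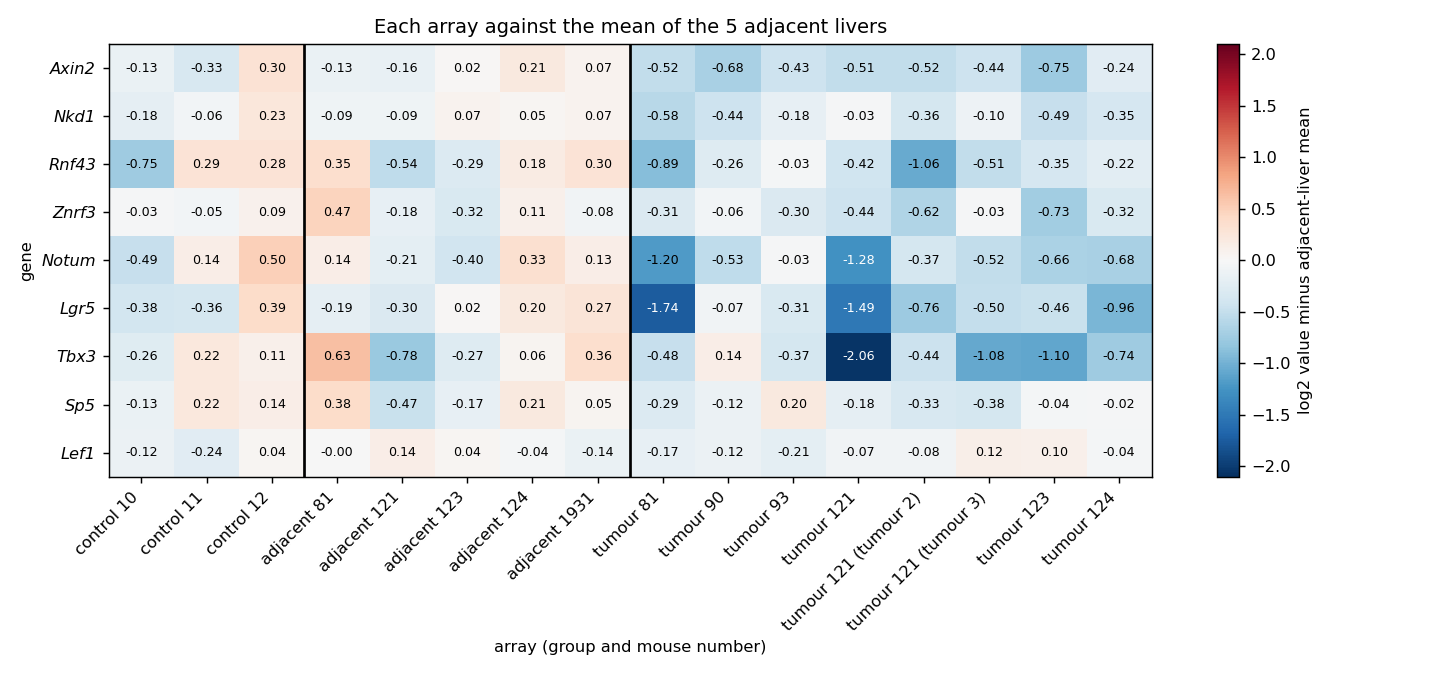
Log2 value of each gene (rows) on each array (columns) minus the mean of the 5 adjacent livers, in colour and figures; black lines part control, adjacent and tumour arrays, and tumour 121 without a further number is the unnumbered one. Tbx3 in the unnumbered tumour of mouse 121, at -2.06, and Lgr5 in tumour 81, at -1.74, are the lowest of the 9 genes.

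The 3 tumours of mouse 121 show how far tumours of 1 liver differ. Axin2 was nearly equal in them, at 4.90 in the unnumbered tumour, 4.89 in tumour 2 and 4.97 in tumour 3, a range of 0.084 where the 6 tumour mice spanned 0.51. Tbx3 was at 5.34, 6.95 and 6.32, a range of 1.62, beside 1.34 over the 6 tumour mice. The ranges over 6 mice take mouse 121 as the mean of its tumours, 6.20 for Tbx3, so they are not ranges of single tumours. Over all 8 tumours Tbx3 ran from 5.34 in the unnumbered tumour of mouse 121 to 7.54 in tumour 90. Lgr5 was at 3.61, 4.35 and 4.61 and Notum at 4.33, 5.24 and 5.09, so the unnumbered tumour was lowest in all 3 of these. In contrast, Rnf43 was at 6.13, 5.49 and 6.04, lowest in tumour 2. Tumour 2 was the lowest of the 3 in 5 members, the unnumbered tumour in 3 and tumour 3 in 1. With tumours 2 and 3 alone standing for mouse 121, a choice added after the data were seen, Lgr5 was at -0.69 against adjacent liver and Axin2 at -0.52.

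Within the 4 mice that gave both tissues, 32 of 36 differences between tumour and own adjacent liver were below 0. Axin2, Nkd1, Rnf43, Znrf3, Notum, Lgr5 and Tbx3 were lower in the tumour in 4 of 4 mice, and Sp5 and Lef1 in 2 of 4. How many of all genes were lower within these pairs was not counted. Since the members share these mice and tend to move together, the 36 differences are not independent. Such counts therefore describe the members and do not set them apart from other genes. For Axin2 the differences were -0.33, -0.45, -0.78 and -0.39 in mice 121, 124, 123 and 81. For Lgr5 they were -0.62, -1.16, -0.48 and -1.56, and for Tbx3 -0.41, -0.80, -0.83 and -1.12. Mouse 81 had the largest difference in Rnf43 (-1.25), Znrf3 (-0.78), Notum (-1.34), Lgr5 and Tbx3, and mouse 123 in Axin2 and Nkd1. With 4 pairs a two-sided sign-flip test cannot go below 0.125, so no such test was run. With the mouse as a fixed replicate block in these 4 mice, limma gave 0 members past the threshold, with adjusted p-values from 0.149 for Tbx3 to 0.854 for Lef1.

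**Figure D4:**
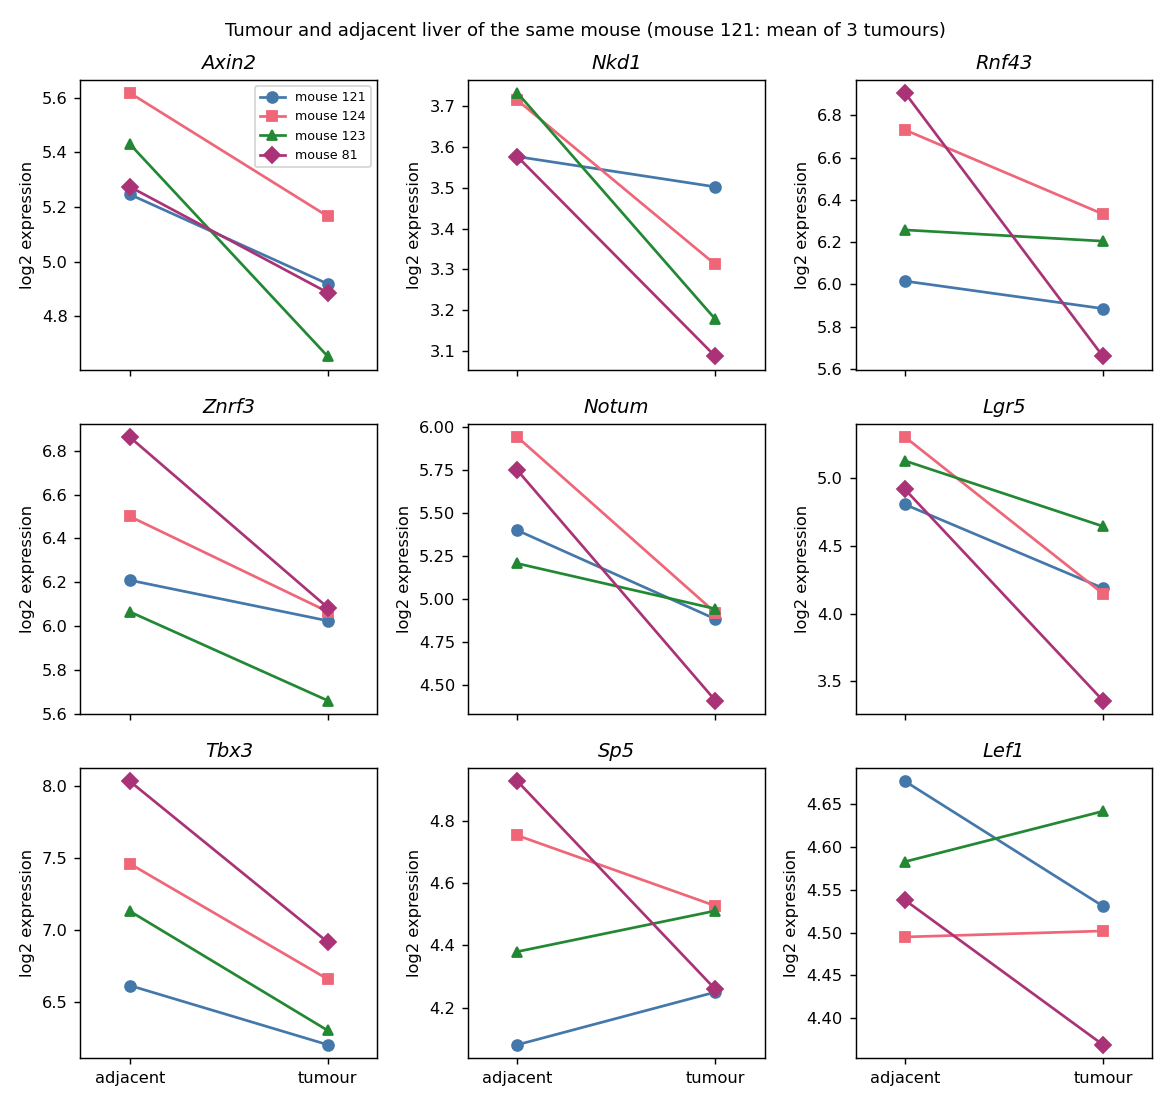
Log2 expression (y axis) of each gene in adjacent liver and tumour (x axis) of the 4 mice that gave both, 1 line per mouse, with the 3 tumours of mouse 121 averaged. The tumour end is lower in all 4 lines for Axin2, Nkd1, Rnf43, Znrf3, Notum, Lgr5 and Tbx3, and in 2 of 4 for Sp5 and Lef1.

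The second comparison set the same tumours against control liver, so it shares the tumour values with the first. Means were lower in tumours for 8 of 9 genes, with Lef1 at 0.04, and the median difference was -0.36. None passed over all genes, where 0.0258% of genes did, and 3 of 9 (Axin2, Nkd1 and Notum) were lower at an unadjusted p under 0.05, where 6.88% of all genes were. Of all genes 57.8% had a lower mean. Axin2 was at 5.27, 5.08 and 5.71 in controls 10, 11 and 12 and differed by -0.46 (SE 0.15, adjusted p = 0.22 in limma, exact permutation p = 0.0238). Notum was at 5.11, 5.75 and 6.11 in these controls and differed by -0.69 (SE 0.25, adjusted p = 0.263 in limma, exact permutation p = 0.0357). Nkd1 was at 3.48, 3.60 and 3.90 and differed by -0.36 (SE 0.12, adjusted p = 0.217 in limma, exact permutation p = 0.0476).

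Znrf3 was the member that did not overlap between tumours and controls, 1 of 9 where 3.08% of all genes were lower without overlap. Its 3 controls lay within 0.14 log2 units of each other, from 6.34 to 6.48, and its highest tumour mouse was at 6.33. This holds with the tumours of mouse 121 averaged: its tumour 3 alone, at 6.361, lay above control 11, at 6.335. The difference was -0.35 (SE 0.17, adjusted p = 0.419 in limma, exact permutation p = 0.0476). Lgr5 was at 4.72, 4.74 and 5.49 in the controls and Tbx3 at 7.14, 7.62 and 7.51. Their differences were -0.63 (SE 0.30) and -0.65 (SE 0.31). The counts rest on single controls: without control 12 none of the 9 was lower at an unadjusted p under 0.05, while 6 were without control 10, the control with the high macrophage markers, or without tumour 90, and 5 without adjacent 81, which enters through the shared spread. Without overlap there were 4 without control 10, and 2 without control 11, tumour 90, tumour 124 or tumour 93. The share of all genes, at the unadjusted level or without overlap, was not counted for these omissions. Fewer controls also leave less room for overlap. Genes passing over all genes moved too, from 6 to 0 without control 12 and 10 without control 10. They numbered 76 without tumour 90 and 242 without tumour 93.

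The third comparison set adjacent liver, in which Axin1 is deleted too, against control liver. The 9 differences lay between -0.07 for Sp5 and 0.12 for Lgr5, with a median of 0.0049. None passed over all genes in limma, where 0% of genes did, and 0 of 9 had an unadjusted p under 0.05, where 4.55% of all genes did. The groups overlapped in all 9, and 4.22% of all genes did not overlap. The 95% interval ran from -0.28 to 0.39 for Axin2, from -0.26 to 0.27 for Nkd1, from -0.38 to 0.38 for Znrf3 and from -0.60 to 0.49 for Notum. It ran from -0.55 to 0.78 for Lgr5, from -0.71 to 0.66 for Tbx3, from -0.53 to 0.65 for Rnf43, from -0.46 to 0.31 for Sp5 and from -0.13 to 0.35 for Lef1. Differences of the same size and sign as those between tumour and adjacent liver were set against these intervals. They lay inside for Tbx3 (-0.62), Rnf43 (-0.40), Znrf3 (-0.35), Sp5 (-0.09) and Lef1 (-0.07). They lay outside for Lgr5 (-0.74), Notum (-0.64), Axin2 (-0.52) and Nkd1 (-0.37). With the sign turned to higher in adjacent liver, the size for Lgr5 lay inside its interval, which reached 0.78. Those for Notum, Axin2 and Nkd1 still lay outside. Axin1 differed by -1.06 (SE 0.18) between the same livers, with an adjusted p of 0.255 in limma.

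The closest relatives of the members were read beside them. Axin1 was at 0.23 (SE 0.15) in tumours against adjacent liver, the other way from Axin2. Lgr4, a second R-spondin receptor, was at 0.08 (SE 0.13, and -0.01 without adjacent 121) and Lgr6 at -0.15 (SE 0.12). Nkd2 was at -0.18 (SE 0.14), Tbx2 at -0.18 (SE 0.12) and Sp8 at -0.10 (SE 0.12). Tcf7l2, the TCF factor of hepatocytes, was at -0.40 (SE 0.16, adjusted p = 0.241 in limma), while Tcf7l1 was at 0.26 (SE 0.18). Against control liver, Tcf7l1 was lower without overlap in both tissues of deleted mice, at -0.88 (SE 0.22) beside tumours and -0.61 (SE 0.21) within them, 2 comparisons that share the controls, with adjusted p-values of 0.815 and 0.249 in limma. Whether relatives and members differ from each other was not tested.

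The rest of the pathway and other targets gave a mixed picture, in lists drawn up with earlier results of these data known. Of 89 other ligands, receptors, antagonists and cytoplasmic or nuclear components, 0 passed over all genes; at an unadjusted p under 0.05, 10 were lower and 3 higher in tumours than in adjacent liver, against 8.32% and 6.95% of all genes, with a median of 0.01. Among 25 ligands and their helpers, Rspo3, an R-spondin of central vein cells, was at -1.36 (SE 0.33, adjusted p = 0.0838 in limma). Its adjusted p was 0.0147 without tumour 93, where 743 genes passed, and reached 0.199 over the 14 omissions. Wnt3 was at -0.29 (SE 0.12) and Wnt5a at 0.29 (SE 0.13). Among 17 receptors, Lrp6, a Wnt co-receptor, was lower without overlap at -0.36 (SE 0.10, adjusted p = 0.101), with Fzd2 at -0.17 (SE 0.08) and Fzd8 at -0.49 (SE 0.22). Of 15 antagonists, secreted or held in the membrane, the membrane protein Kremen1 was at -0.32 (SE 0.15). The secreted Sfrp2 was at 0.22 (SE 0.10) and Frzb at 0.30 (SE 0.22).

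Of 17 cytoplasmic components, Csnk1e, a casein kinase, was at 0.96 (SE 0.27, adjusted p = 0.114 in limma), Amer1 at -0.43 (SE 0.20) and Gsk3b at 0.19 (SE 0.10). The adjusted p of Csnk1e was 0.0287 without tumour 93 and reached 0.244 over the 14 omissions. Of 15 nuclear components, Bcl9l, a beta-catenin co-factor, was lower without overlap at -0.43 (SE 0.13, adjusted p = 0.127) and Ctbp1 was at 0.34 (SE 0.14). Of 19 pericentral targets in hepatocytes 9 were lower and 1 higher at an unadjusted p under 0.05, against 8.32% and 6.95% of all genes. Their median was -0.56. Slc1a2, a glutamate transporter, was at -3.07 (SE 0.59, adjusted p = 0.059 in limma) and Glul at -1.98 (SE 0.42, adjusted p = 0.0634). The amino acid transporter Slc1a4 was at 1.72 (SE 0.41, adjusted p = 0.0825). Slc1a2 and Glul passed with mouse as a random replicate block (adjusted p = 0.047 and 0.0472 in limma) and with the filter on dim probe sets (0.0405 and 0.0453). They also passed with array weights (0.0353 and 0.0418) and with the unnumbered tumour alone for mouse 121 (0.0326 and 0.0408). In these settings, in that order, 206, 181, 136 and 157 genes passed, against 36 in the main fit. Without tumour 93, where 743 genes passed, the adjusted p was 0.00531 for Slc1a2, 0.00872 for Glul and 0.0275 for Slc1a4. Slc1a4 also passed with the unnumbered tumour alone (adjusted p = 0.0425 in limma). Over the 14 omissions the adjusted p reached 0.165 for Slc1a2, 0.167 for Glul and 0.201 for Slc1a4. Of 22 targets known from other tissues, 7 were higher and 0 lower at that level, against 6.95% and 8.32% of all genes. Their median was 0.30. Among the 7 were Myc at 1.30 (SE 0.37), Sox9 at 0.89 (SE 0.29) and Birc5 at 1.11 (SE 0.37, adjusted p = 0.161 in limma). The adjusted p of Birc5 was 0.0211 without tumour 90, where 123 genes passed, and reached 0.329 over the 14 omissions.

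**Figure D5:**
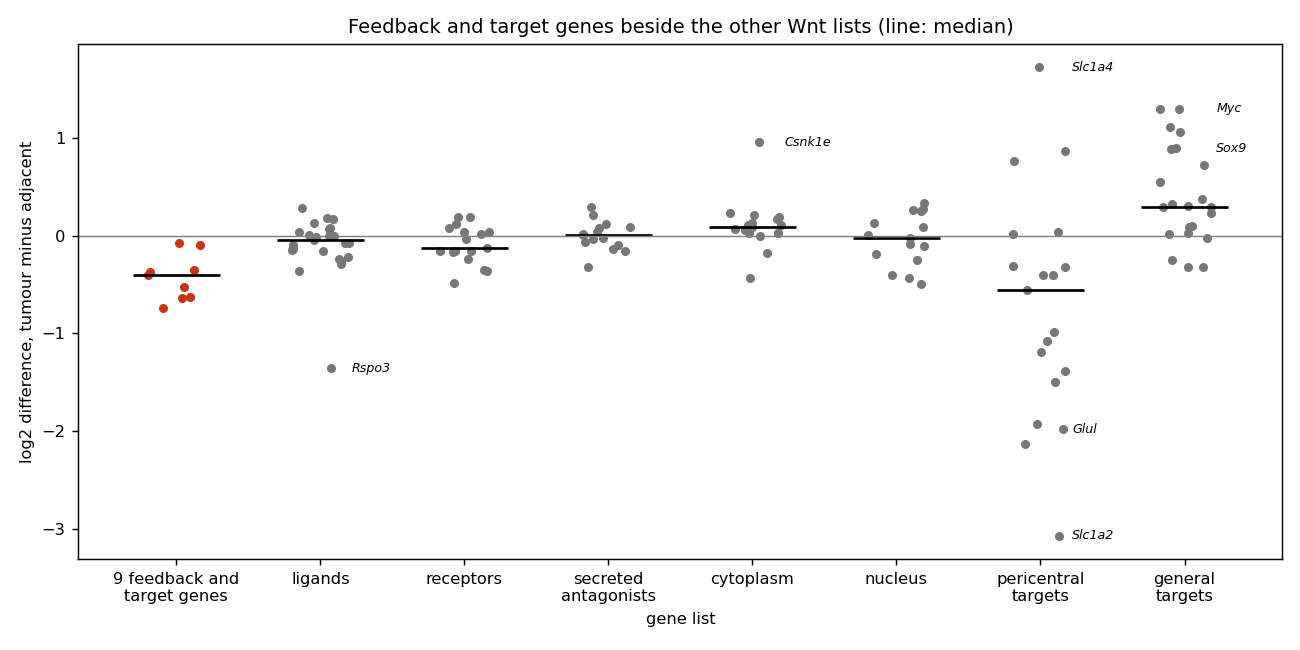
Log2 difference between tumour and adjacent liver (y axis) for the 9 feedback and target genes (red) and 7 other Wnt lists (grey) on the x axis; points are genes, spread sideways for sight, and lines are medians. The median is -0.40 for the 9 genes, -0.56 for pericentral targets and 0.30 for targets known from other tissues. The list labelled secreted antagonists also holds membrane proteins such as Kremen1.

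No marker of any of the 8 cell lists passed over all genes between tumour and adjacent liver. Some differed at an unadjusted p under 0.05, where 6.95% of all genes were higher and 8.32% lower, and their part in the members' values was not tested. The mean log2 value of 10 sinusoidal and central vein endothelial markers, Rspo3 among them, ran from 4.91 to 5.94 in tumours and from 5.81 to 5.97 in adjacent liver, with 4 markers lower (Stab2, Clec4g, Rspo3 and Selp) and 3 higher (Pecam1, Cdh5 and Thbd) at an unadjusted p under 0.05. The mean was 4.91 in tumour 81, 5.40 in tumour 90, 5.43 in tumour 123, 5.63 in tumour 121, 5.86 in tumour 124 and 5.94 in tumour 93. Of the 6 tumour mice, mouse 81 was lowest in Nkd1, Rnf43, Notum and Lgr5 and mouse 123 in Axin2 and Znrf3. Mouse 121 was lowest in Sp5 and Tbx3 and mouse 93 in Lef1. Mouse 93 was highest in Rnf43, Notum and Sp5, mouse 90 in Lgr5, Tbx3 and Znrf3, and mouse 124 in Axin2. Mouse 121 was highest in Nkd1 and mouse 123 in Lef1. The endothelial mean joins lower with higher markers, and its relation to the members was not tested. The mean of 4 cycling markers ran from 4.86 to 7.01 in tumours and from 4.16 to 5.43 in adjacent liver, with 4 of 4 higher at that level. The mean of 8 stellate and fibroblast markers ran from 6.17 to 6.996 and from 5.63 to 6.63, with 4 higher and 2 lower. That of 6 Kupffer cell and macrophage markers ran from 5.14 to 6.46 and from 5.93 to 7.36, with 2 lower. The means of 5 cholangiocyte markers (3.95 to 4.94 and 3.86 to 4.13) and of 3 B cell markers (3.19 to 3.73 and 3.11 to 3.68) overlapped, with 1 of the 5 higher and 0 of the 3 different. None of the 6 hepatocyte markers differed at an unadjusted p under 0.05, and their list ran from 11.44 to 11.73 in tumours and from 11.68 to 11.86 in adjacent liver.

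Likeness of pattern was measured by Pearson's r over the 14 values per mouse and tissue, which share tissue, mouse and array scale, so r is a description. Among the members, Axin2 and Nkd1 had an r of 0.871, Rnf43 and Notum 0.868, Rnf43 and Sp5 0.854, and Lgr5 and Notum 0.834. Lef1 stood apart, with r between -0.39 and 0.20 against the other 8. Outside the list, the genes most like Axin2 were Fn3k and Dlg3 (both 0.911), and those most like Nkd1 were Abcb10 (0.933) and Tymp (0.928). Lgr5 was most like Col18a1 (0.918) and Cecr2 (0.913), Notum most like Dgat2 (0.891) and Igfbp4 (0.882), and Tbx3 most like Chd3 (0.862) and Ddx47 (0.843). Znrf3 was most like Slc37a4 (0.964) and Zfp318 (0.902), and Rnf43 most like Edrf1 (0.906) and Fam160b1 (0.855). For Sp5 they were Zc2hc1c (0.829) and Unc5a (0.794), and for Lef1 Adamts6 (0.776) and Inpp1 (0.752).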

How the data were processed

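RNA was extracted with Trizol from whole liver or tumour tissue, amplified as cDNA and biotin-labelled for 1 array per sample (16 arrays), per the labels' protocols. The deposited values are log2 expression values. The authors' tools, per the submitters' processing notes, include RMA and Partek, with no version; neither chip model nor genome build is stated there. RMA evens out array distributions and compresses dim probe sets. Of 24479 probe sets 23281 had 1 symbol, 0 several and 1198 none. The brighter of 2 probe sets was kept for 2 symbols, which left 23279 genes.

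The 3 tumours of mouse 121 were averaged, and the 3 groups were fitted together in limma 3.58.1 (R 4.3.3) with an intensity trend and no block. Adjustment was by Benjamini-Hochberg across the 23279 genes, with 0.05 as threshold. The fit was tested on simulated data. P-values rest on the spread between the values per mouse and tissue, which joins differences between mice with differences between tumours. Mice that gave both tissues entered both groups as separate values. By mouse number, 4 animals gave paired tissues. Deviations of these pairs from group means correlated at 0.0349 to 0.0998. Those of 26 tumour and adjacent pairs with different mouse numbers correlated at -0.3285 to 0.3167. The highest of these was tumour 93 with adjacent 1931. The labels give no batch.

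The members and lists were chosen with earlier results of these data known. All 9 members are named, with their relatives and Glul. Of each other list the 3 genes with the smallest adjusted p between tumour and adjacent liver are named, and for each member the 2 genes of highest r, leaving out dim, predicted and clone-named genes. Alternatives covered normalization, filters, variance model, mouse 121, blocks and each of the 14 values per mouse and tissue left out. Promoter sequences are from RefSeq (GRCm38.p6).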

Additional observations from a re-analysis of the deposited data

How the results depend on the processing

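Under 27 alternative settings, 240 values of the 9 members between tumour and adjacent liver kept direction and side of the threshold, 1 passed it and 1 changed sign. Axin2 passed under a random replicate block for mouse (-0.51, adjusted p = 0.0472 in limma), which made the count of passing members 1; as a fixed block it did not (-0.49, 0.235). The blocks changed no other member's call. The members lower without overlap numbered 1 with the filter on dim probe sets (Nkd1 is not tested there) and 1 with all 8 tumours as separate values. They numbered 1 with the unnumbered tumour alone for mouse 121 and 4 in the 4 paired mice. Leaving out 1 of the 14 values per mouse and tissue gave 2 to 3. Against control, members lower at an unadjusted p under 0.05 numbered 5 with quantile normalization and 5 with the 2 groups only. They numbered 5 with 8 separate tumours, 5 with the random replicate block and 0 to 6 with 1 value left out. Without overlap they numbered 0 with quantile normalization, 0 with 8 separate tumours and 1 to 4 with 1 value left out. The share of all genes, at the unadjusted level or without overlap, was not counted in these settings. Fewer values in a group also leave less room for overlap, as in the 4 paired mice. The counts therefore do not set the members apart from other genes, and the cause of their changes was not tested.

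Differences near 0 changed sign when a mouse was left out. Between tumour and adjacent liver Sp5 ran from -0.21 to 0.00049, Lgr4 from -0.0087 to 0.16 and Unc5a from -0.11 to 0.011. Lef1 ran from -0.033 to 0.11 against control. Between adjacent and control liver the ranges were -0.084 to 0.23 for Axin2, -0.015 to 0.37 for Lgr5, -0.084 to 0.12 for Nkd1, -0.29 to 0.23 for Rnf43, -0.12 to 0.079 for Znrf3, -0.18 to 0.043 for Sp5, -0.32 to 0.18 for Notum and -0.18 to 0.17 for Tbx3. Median centring turned Znrf3 to 0.024 and Tbx3 to 0.0034 there, and the random block turned Znrf3 to 0.0025. Over all genes, the 36 calls between tumour and adjacent liver became 22 with quantile normalization, 16 with median centring, 181 with the filter, 206 with the random block, 0 with the fixed block and 5 to 743 with a mouse left out.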

Other observations

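Non-tumour livers of one group also differed from each other in these genes. Among the 5 adjacent livers, mouse 121 was lowest in 5 of the 9 members and mouse 81 highest in 4, with Tbx3 at 6.61 and 8.03. Among the 3 controls, mouse 10 was lowest in 6 members and mouse 12 highest in 6. Control 10 was also the control with the highest means of macrophage markers (8.90) and cycling markers (5.39). Rnf43 showed the widest control range, with control 10 at 5.80 against 6.84 and 6.83 in controls 11 and 12.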
